A study of Homo sapiens with 32 samples.

Results

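The enzymes that write, maintain and erase DNA methylation, and the enzymes that place the Polycomb mark on histone H3, were followed in MDA-MB-468 cells, a triple-negative breast cancer line, after treatment with salinomycin (Sal), dasatinib (Das) or both. The members were a list of 10 genes, DNMT1, DNMT3A, DNMT3B, UHRF1, HELLS, TET1, TET2, TET3, EZH1 and EZH2, out of 48804 genes in the deposited count table. Of these, 9 matched a row of the table through their Ensembl identifiers and UHRF1, which matched none, was not analysed here. RNA was sequenced from 8 groups of cells: the control, which received PBS, 0.5 μM Sal, 15 μM Das, and both drugs at these doses (S + D), each for 24 h and for 72 h. Each group held 4 libraries that the authors describe as biological replicates, so there were 32 libraries of 1 cell line.

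DNA methylation is written on cytosines that precede guanines. DNMT1 copies it onto the new strand after each round of DNA replication, guided by UHRF1 to sites methylated on the old strand only, while DNMT3A and DNMT3B place it on unmethylated DNA, and the TET enzymes oxidize it so that it can be removed. The Polycomb repressive complex PRC2 methylates a lysine of histone H3 at silenced genes through its catalytic subunit, which is either EZH2, known as abundant in dividing cells, or its relative EZH1, known from resting and differentiated cells.

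The total counts lay between 25692561 and 42769687 per library, and the 9 genes had between 97 and 54145 counts in a library. Levels are given as CPM, the counts scaled to a common library total after TMM, so a level is a share of the RNA of a library. In bulk RNA, fewer cells with a transcript and less of it per cell cannot be told apart. The epithelial markers EPCAM, KRT8, KRT18, CDH1 and EGFR were present in all libraries, with EPCAM between 206 and 393 CPM. Of the receptors listed as absent or low in a triple-negative line, PGR reached at most 3 counts and ESR1 lay between 3.64 and 11.97 CPM. ERBB2, also on that list, lay higher, between 56.8 and 192.1 CPM. Of 9 matched markers of fibroblasts, leukocytes and endothelium, the 4 leukocyte markers reached at most 7 counts in any library. The endothelial marker CDH5 reached at most 36 counts. Of the fibroblast markers, COL3A1 and DCN reached at most 2 counts and PDGFRB at most 79, while COL1A1 had between 602 and 4275. The summed fibroblast markers, almost wholly COL1A1, were between 23.8 and 32.5 CPM in the 72 h control. At 72 h they were between 55.6 and 78.2 CPM in Sal, 33.4 and 68.9 CPM in Das and 68.8 and 122.2 CPM in S + D, and their part in the results was not tested.

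Some libraries stood apart before any comparison was made. In each group, 1 of the 4 libraries carried no replicate number in its label. The deviations of these unnumbered libraries from their group means correlated with each other over genes (r from 0.588 to 0.666 at 24 h and from 0.522 to 0.611 at 72 h). Values from the numbered libraries alone are therefore also given for several of the results that they change. The library labelled Das 72 h replicate 3 lay closer to the control than the other Das libraries did, with a root mean square log2 distance to the 72 h control mean of 0.646 against 0.85 to 0.93. It was the highest of the Das 72 h libraries for 8 of the 9 genes and the lowest for EZH1, and the counts for Das at 72 h are therefore given with and without it.

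In the 24 h control, the levels per kilobase of exon spanned a wide range. DNMT1 stood first with 91.7 ± 6.28 CPM per kb (SD, n = 4), followed by EZH2 with 16.7 ± 0.52 and TET3 with 9.29 ± 0.51 CPM per kb. DNMT3A (5.25 ± 0.31), TET2 (4.81 ± 0.94) and DNMT3B (4.22 ± 0.34 CPM per kb) came next, and the libraries of these neighbours overlapped. EZH1 had 2.80 ± 0.12, HELLS 2.48 ± 0.10 and TET1 1.76 ± 0.42 CPM per kb, and no libraries of neighbours overlapped in this lower part of the order. These per-kilobase levels use the union of annotated exons, which can be longer than the transcript in use. Culture time alone moved none of the 9 past the threshold of an adjusted p under 0.01 in edgeR's quasi-likelihood test over all genes. The count was 0 of 9, against 2.76% of all genes in either direction, with 3 of 9 at an unadjusted p under 0.05. Shares of all genes at an unadjusted p under 0.05 are not given, so nothing is read from counts at that threshold, here or below.

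The start regions of all 10 members were searched for the E2F word, the sequence bound by the E2F factors that switch on replication genes. RefSeq promoter windows of GRCh38.p14, from 250 bases before the start site to 50 bases from it, were used, and each stretch shown was placed on GRCh37, the build of the counts, by an exact search. The words TTTCGCGC, TTTGGCGC, TTTCCCGC and TTTGCCGC on either strand were present in 3.31% of 35116 windows, and at least 2 of them in 0.145%. The window of DNMT1 held 1, the window of HELLS 2, 1 of 2 windows of EZH2 held 1, and the window of EZH1 held 1. UHRF1, which matched no row by its identifier and was not analysed, held 1 in each of 2 of its 3 windows. None lay in the windows of DNMT3A, DNMT3B, TET1, TET2 or TET3, which says only that these letters are not there. The stretches of the 4 analysed genes with a word are shown. The letters of 3 genes that fell with Sal at 72 h can so be set beside those of EZH1, which rose. Capitals mark the E2F words, and in EZH2 also the CCAAT boxes, the sequence bound by NF-Y, read as ATTGG on the other strand. No E2F word shown overlapped a CCAAT box. CCAAT was found in 34.6% of all windows, and 4 or more copies, as in EZH2, in 0.991%. The positions are chr19:10305621-10305669 for DNMT1 (minus strand, bases -40 to +9 from the start), chr10:96305459-96305544 for HELLS (plus strand, -86 to -1), chr7:148581375-148581483 for EZH2 (minus strand, -100 to +9) and chr17:40897149-40897188 for EZH1 (minus strand, -130 to -91).
DNMT1: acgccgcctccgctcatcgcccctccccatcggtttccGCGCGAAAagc
HELLS: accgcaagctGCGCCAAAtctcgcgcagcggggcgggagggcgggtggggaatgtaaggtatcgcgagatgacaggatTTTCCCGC
EZH2: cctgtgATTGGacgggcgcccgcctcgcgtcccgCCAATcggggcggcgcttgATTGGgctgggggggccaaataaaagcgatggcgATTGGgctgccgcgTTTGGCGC
EZH1: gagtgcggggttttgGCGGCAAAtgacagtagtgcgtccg
A match is a description of the letters, not of binding, and EZH1 held a word as DNMT1, HELLS and EZH2 did.

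After 72 h of Sal, 7 of the 9 enzymes were lower than in the control and EZH1 was higher, and with S + D 8 of the 9 were lower and EZH1 was higher. HELLS fell most, to 0.155 of its control level with Sal and 0.123 with S + D, and DNMT3A, DNMT3B and TET1 fell to between 0.281 and 0.388 of control. With Das, 2 of the 9, DNMT1 and DNMT3A, were lower and 0 were higher. At 72 h the background of all genes lower at the same threshold was 26.8% with Sal, 27.9% with S + D and 9.36% with Das, and of all genes higher 26.3%, 27% and 10.5%. The median log2 fold change of the 9 was -1.27 with Sal, -1.41 with S + D and -0.54 with Das, where the median of all genes was 0.00, 0.01 and 0.02.

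At 24 h fewer passed. With Sal, 1 of 9 was lower (DNMT3B, against 2.23% of all genes) and 0 of 9 higher (4.55% of all genes). With Das, 3 of 9 were lower (DNMT1, DNMT3B and EZH2, against 6.88%) and 0 of 9 higher (6.99%). With S + D, 5 of 9 were lower (DNMT1, DNMT3A, DNMT3B, HELLS and EZH2, against 16.5%) and EZH1 was higher (17.1%). In the numbered libraries alone, Sal lowered 4 of 9 (DNMT1, DNMT3A, DNMT3B and EZH2, against 10.9% of all genes) and Das 5 of 9 (the same with HELLS, against 18.7%). S + D there lowered 6 of 9 (29.4% of all genes) and raised 2 of 9 (28.7%). With the replicate number as a block, 5 of 9 were lower with Sal (18.7% of all genes called in either direction) and 5 of 9 with Das (27.4%).

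**Figure D1:**
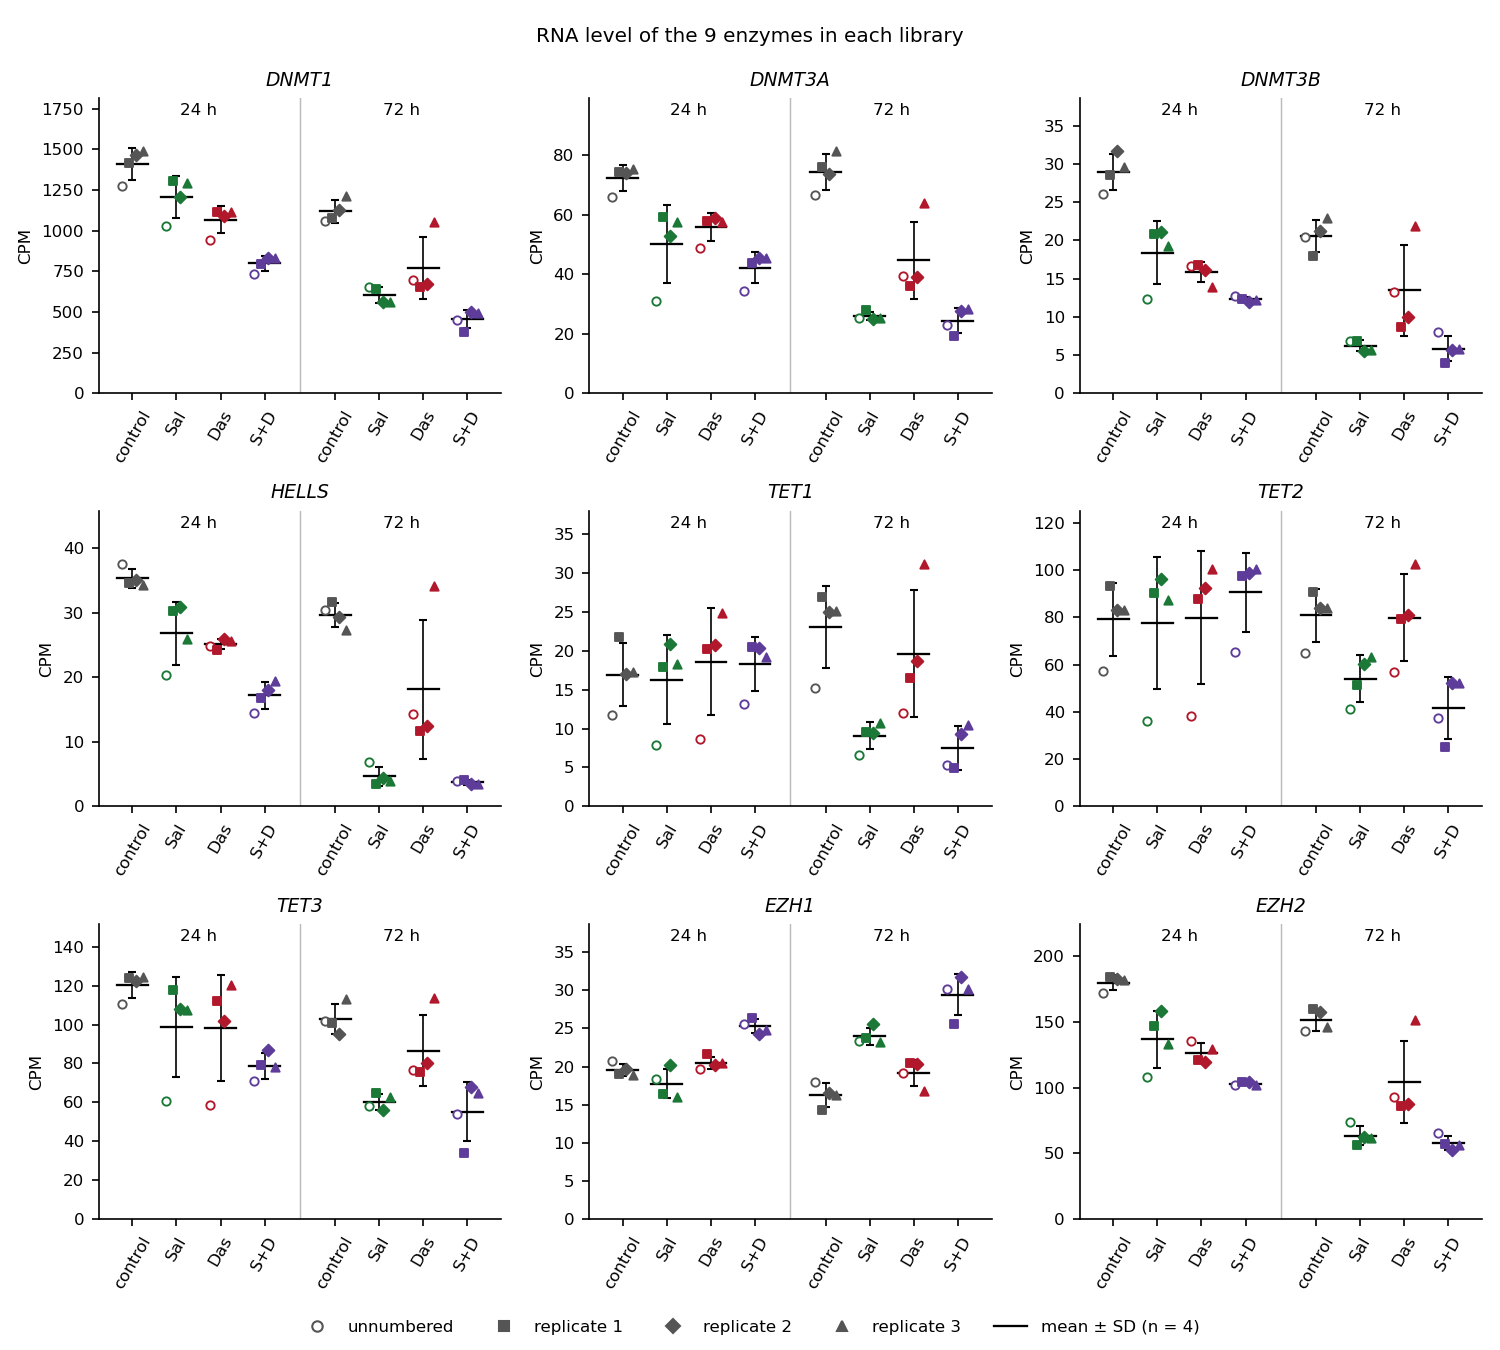
CPM (vertical axes, from 0) of each of the 9 enzymes in all 32 libraries, by treatment at 24 h (left) and 72 h (right). Points are libraries, with open circles for the unnumbered ones, and black bars are the mean ± SD of 4. The library labelled Das 72 h replicate 3 (red triangle) stands above the other Das 72 h libraries in every panel but EZH1, where it is the lowest.

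DNMT1, the maintenance methyltransferase (ENSG00000130816, GRCh37 chr19:10244018-10341962, minus strand), fell with S + D at both times. Library values are listed in the order unnumbered, replicate 1, replicate 2 and replicate 3 throughout. In the 24 h control DNMT1 had 1273, 1413, 1466 and 1488 CPM, and in S + D 735, 797, 831 and 831 CPM. All 4 treated libraries lay below every control library, and the log2 fold change was -0.79 ± 0.09 (SE, edgeR adjusted p = 5.34e-06). With Das alone the 24 h values were 943, 1117, 1090 and 1114 CPM (log2 fold change -0.38 ± 0.09, edgeR adjusted p = 0.00648), and with Sal 1028, 1306, 1205 and 1291 CPM (-0.23 ± 0.09, edgeR adjusted p = 0.11). The Sal libraries overlapped the control, while those of Das did not.

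At 72 h the control had 1056, 1077, 1128 and 1214 CPM of DNMT1. Sal gave 655.5, 642, 559.6 and 559.5 CPM, all below the control, a fall to 0.533 of its level (log2 fold change -0.91 ± 0.14, edgeR adjusted p = 3.4e-05). S + D gave 451, 378, 497 and 491 CPM, all below every library of Sal alone as well, and 0.401 of control (-1.32 ± 0.15, edgeR adjusted p = 6.33e-07). The direct difference between S + D and Sal in DNMT1, -0.41 ± 0.14, did not pass (edgeR adjusted p = 0.0923).

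DNMT3A, a methyltransferase that acts on unmethylated DNA (ENSG00000119772, chr2:25450724-25565459, minus strand), fell with both Sal and S + D at 72 h. In the 72 h control it had 66.6, 75.9, 73.5 and 81.3 CPM. With Sal it had 25.3, 27.9, 24.9 and 25.3 CPM, and with S + D 22.8, 19.1, 27.55 and 28.2 CPM. Both treated groups lay far below the control and overlapped each other, with log2 fold changes of -1.54 ± 0.17 (edgeR adjusted p = 6.27e-07) and -1.62 ± 0.17 (edgeR adjusted p = 3.18e-07). At 24 h the 4 Sal libraries had 31.0, 59.2, 52.8 and 57.6 CPM against 66.0 to 75.2 CPM in the control, and the change of -0.54 ± 0.17 did not pass (edgeR adjusted p = 0.0388). The unnumbered Sal library was the low one, and in the numbered libraries alone DNMT3A changed by -0.38 ± 0.05 (edgeR adjusted p = 1.77e-05).

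DNMT3B, the related enzyme known from early development (ENSG00000088305, chr20:31350191-31397165, plus strand), was called lower with all 3 treatments at 24 h. No other member was when all libraries were used. In the numbered libraries alone, DNMT1, DNMT3A and EZH2 were called lower with Sal and with Das as well. The 24 h control had 26.1, 28.6, 31.7 and 29.6 CPM. Sal gave 12.3, 20.8, 21.2 and 19.3 CPM (log2 fold change -0.66 ± 0.14, edgeR adjusted p = 0.00585) and Das 16.7, 16.8, 16.1 and 13.9 CPM (-0.85 ± 0.14, edgeR adjusted p = 0.000443). S + D gave 12.7, 12.4, 11.9 and 12.3 CPM, the tightest group of the gene, at 0.435 of control (-1.20 ± 0.15, edgeR adjusted p = 6.66e-06). None of these libraries overlapped the control. The call with Sal was lost when control replicate 1, 2 or 3 or Sal replicate 3 was left out.

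At 72 h DNMT3B had 20.4, 17.95, 21.2 and 22.9 CPM in the control, 6.86, 6.90, 5.58 and 5.597 CPM with Sal and 8.03, 3.97, 5.66 and 5.73 CPM with S + D. The fall was to 0.299 of control with Sal (log2 fold change -1.74 ± 0.25, edgeR adjusted p = 1.21e-05) and to 0.281 with S + D (-1.83 ± 0.25, edgeR adjusted p = 6.69e-06). Sal and S + D overlapped each other and not the control. Per kilobase, DNMT1 was 24.4 ± 1.67 times as abundant as DNMT3B in the 72 h control and 43.5 ± 1.58 times with Sal (SD, n = 4).

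HELLS, a chromatin remodeller of the SNF2 family that lets DNA methyltransferases reach packed DNA (ENSG00000119969, chr10:96305086-96373662, plus strand), fell furthest of the 9 with Sal and with S + D at 72 h. The 72 h control had 30.4, 31.7, 29.3 and 27.4 CPM. Sal left 6.83, 3.40, 4.32 and 3.93 CPM and S + D 3.96, 4.00, 3.40 and 3.40 CPM, between 97 and 269 counts in a library. The groups were separated by a wide gap, and the log2 fold changes were -2.69 ± 0.30 with Sal (edgeR adjusted p = 7.06e-07) and -3.02 ± 0.30 with S + D (edgeR adjusted p = 2.14e-07). At 24 h HELLS was already at 14.5, 16.85, 18.0 and 19.3 CPM with S + D against 37.5, 34.6, 35 and 34.3 CPM in the control (-1.01 ± 0.13, edgeR adjusted p = 1e-05). With 1 drug at 24 h the changes were -0.40 ± 0.13 for Sal (edgeR adjusted p = 0.0401) and -0.47 ± 0.13 for Das (edgeR adjusted p = 0.0122), neither past the threshold, and the Das libraries, 24.2 to 25.9 CPM, lay below all controls. About 3.08% of the exon bases of HELLS are shared with another annotated gene on the same strand.

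None of the TET dioxygenases, which start the removal of methylation, passed at 24 h. They lie at chr10:70320094-70454244 (TET1, ENSG00000138336), chr4:106067032-106200973 (TET2, ENSG00000168769) and chr2:74212037-74335303 (TET3, ENSG00000187605), all on the plus strand. For TET1 the 24 h log2 fold changes were -0.06 ± 0.31 for Sal, 0.16 ± 0.31 for Das and 0.15 ± 0.31 for S + D, and for TET2 -0.03 ± 0.30, 0.03 ± 0.30 and 0.23 ± 0.30, all with edgeR adjusted p of 0.575 or above. The libraries of all groups overlapped for both genes. TET2 in the 24 h control was 57.2, 93.3, 83.3 and 83.2 CPM, and with Sal 36.1, 90.4, 96.4 and 87.4 CPM, so the unnumbered library was the lowest in both. In the numbered libraries alone TET2 was higher with S + D at 24 h, by 0.21 ± 0.06 (edgeR adjusted p = 0.00462), and TET1 still did not pass (0.12 ± 0.10, edgeR adjusted p = 0.29).

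At 72 h TET1 fell. It had 15.2, 26.9, 25.0 and 25.1 CPM in the control, 6.58, 9.52, 9.46 and 10.7 CPM with Sal and 5.33, 4.93, 9.27 and 10.5 CPM with S + D. No treated library reached the control, and the log2 fold changes were -1.37 ± 0.29 (edgeR adjusted p = 0.000529) and -1.63 ± 0.29 (edgeR adjusted p = 0.000102). TET2 fell less. Its 72 h control had 64.8, 90.9, 83.9 and 83.9 CPM, Sal 41.1, 51.3, 60.4 and 63.1 CPM and S + D 37.2, 25.0, 52.0 and 52.3 CPM. All treated libraries lay below the control, and the change was called with S + D (-0.97 ± 0.22, edgeR adjusted p = 0.000806) but not with Sal (-0.60 ± 0.22, edgeR adjusted p = 0.0222).

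TET3, the most abundant of the TET genes per kilobase in the 24 h control, was at 102.0, 100.9, 95.1 and 113.3 CPM in the 72 h control. It fell with Sal to 57.9, 64.9, 56.1 and 62.7 CPM (log2 fold change -0.79 ± 0.18, edgeR adjusted p = 0.000845) and with S + D to 54.15, 34.2, 67.7 and 64.7 CPM (-0.91 ± 0.18, edgeR adjusted p = 0.000212). The groups did not overlap the control, and S + D replicate 1 was the lowest library for TET1, TET2 and TET3 alike. At 24 h TET3 changed by -0.58 ± 0.21 with S + D, which did not pass (edgeR adjusted p = 0.0311), although all S + D libraries, 71.0 to 86.9 CPM, lay below the control, 110.5 to 124.3 CPM. In the numbered libraries alone that change was -0.59 ± 0.06 (edgeR adjusted p = 1.55e-07). About 3.01% of the exon bases of TET3 are shared with another gene of the same strand.

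**Figure D2:**
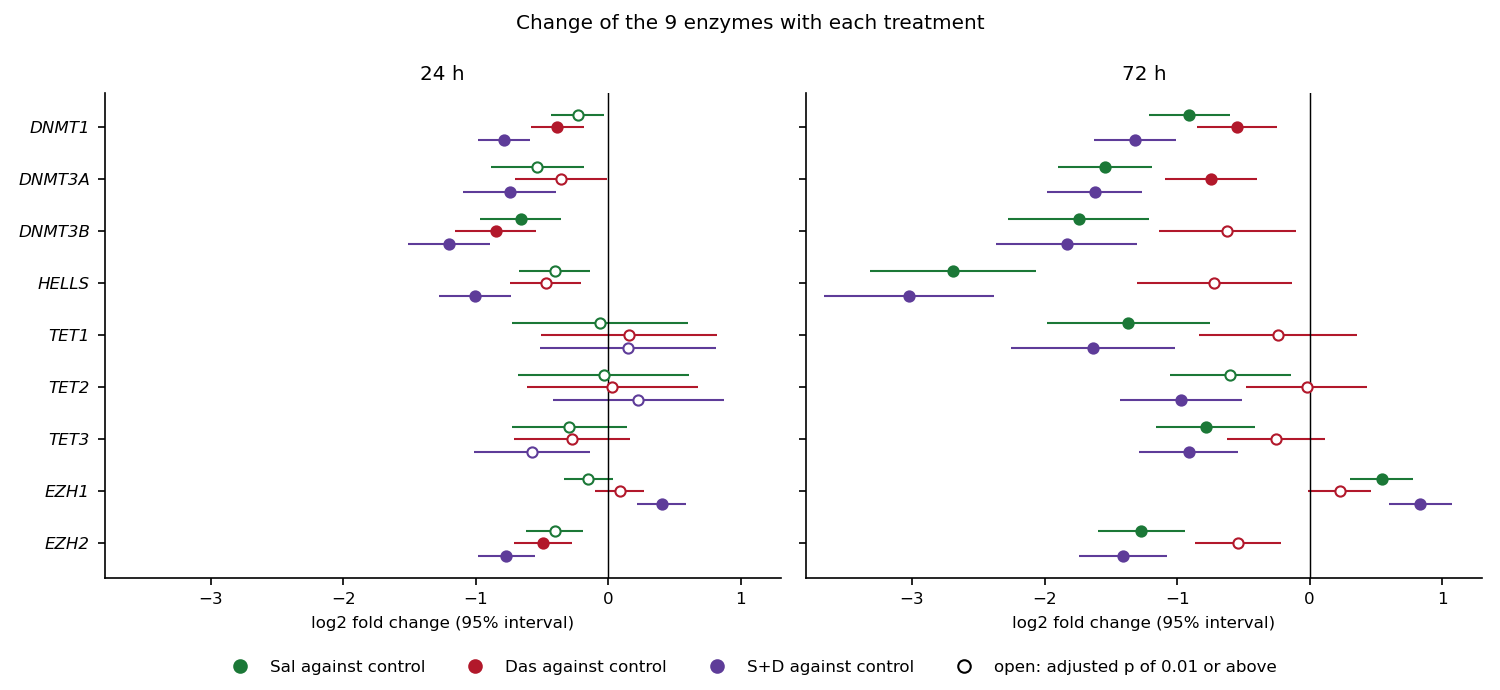
Log2 fold change (horizontal axis) against the control of the same time point, with 95% intervals, for the 9 enzymes at 24 h (left) and 72 h (right). Green is Sal, red Das and purple S + D, and filled points passed an adjusted p under 0.01. EZH1 is the gene to the right of 0 with Sal and S + D at 72 h, and the intervals of Sal and S + D overlap for all 9 genes at 72 h.

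The PRC2 methyltransferases moved in opposite directions with Sal and S + D at 72 h. EZH2, the form of dividing cells (ENSG00000106462, chr7:148504349-148581413, minus strand), had 143.0, 159.6, 157.3 and 145.7 CPM in the 72 h control. It fell to 74.0, 56.3, 62.6 and 61.3 CPM with Sal (log2 fold change -1.27 ± 0.16, edgeR adjusted p = 2.2e-06) and to 65.3, 57.0, 52.4 and 56.2 CPM with S + D (-1.41 ± 0.16, edgeR adjusted p = 6.66e-07). Neither treated group overlapped the control. At 24 h the values were 171.5, 183.7, 182.0 and 181.6 CPM in the control, and S + D gave 101.8, 104.2, 104.3 and 101.8 CPM (-0.77 ± 0.10, edgeR adjusted p = 1.64e-05). Das alone at 24 h gave 135.0, 120.7, 119.0 and 129.4 CPM (-0.49 ± 0.10, edgeR adjusted p = 0.00209), and Sal gave 107.6, 146.8, 158.3 and 133.3 CPM (-0.40 ± 0.10), which missed the threshold with an edgeR adjusted p of 0.0136.

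EZH1, its relative (ENSG00000108799, chr17:40852293-40897067, minus strand), was the only member that rose against the control when all libraries were used. The 72 h control had 18.0, 14.3, 16.5 and 16.2 CPM, Sal 23.4, 23.7, 25.6 and 23.3 CPM and S + D 30.2, 25.5, 31.7 and 30.2 CPM. Every treated library lay above every control library, and the rise was 1.46-fold with Sal (log2 fold change 0.54 ± 0.11, edgeR adjusted p = 0.000423) and 1.785-fold with S + D (0.84 ± 0.11, edgeR adjusted p = 5.11e-06). At 24 h EZH1 rose with S + D, from 20.7, 19.0, 19.7 and 18.9 CPM to 25.6, 26.35, 24.25 and 24.8 CPM (0.40 ± 0.09, edgeR adjusted p = 0.00127), while Sal alone gave -0.15 ± 0.09 (edgeR adjusted p = 0.285) and Das alone 0.08 ± 0.09 (edgeR adjusted p = 0.537).

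Within each library, the level of EZH2 per kilobase was divided by that of EZH1. The ratio was 5.15, 7.22, 6.18 and 5.82 in the 72 h control, 2.05, 1.54, 1.58 and 1.71 with Sal and 1.40, 1.45, 1.07 and 1.21 with S + D. The highest S + D library was below the lowest Sal library, and both groups lay far below the control. The ratio was not tested. Between S + D and Sal neither gene passed at 72 h (edgeR adjusted p = 0.657 for EZH2 and 0.12 for EZH1). At 24 h the ratio was 5.97 ± 0.41 in the control and 2.65 ± 0.10 in S + D (SD, n = 4). A ratio within a library shows unequal change and is free of the library scaling.

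**Figure D3:**
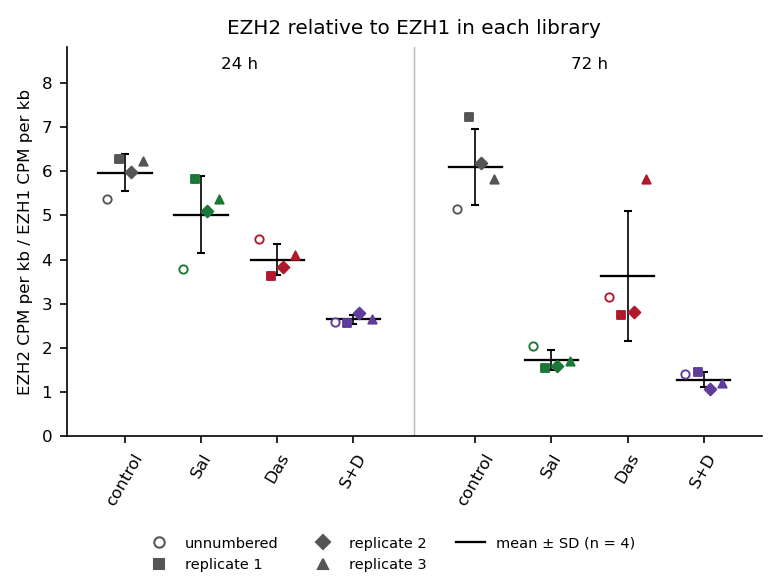
EZH2 CPM per kb divided by EZH1 CPM per kb (vertical axis, from 0) in all 32 libraries, by treatment at 24 h and 72 h. Points are libraries and black bars are the mean ± SD of 4. The control libraries lie between 5.15 and 7.22, and S + D at 72 h lies between 1.07 and 1.45.

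The calls with Das at 72 h depended on single libraries, and replicate 3 stood apart from the other Das libraries. For HELLS the Das libraries had 14.2, 11.7, 12.4 and 34.1 CPM against 27.4 to 31.7 CPM in the control, so 3 libraries lay far below and replicate 3 above every control. EZH2 had 93.0, 86.3, 87.8 and 151.0 CPM against 143.0 to 159.6 CPM, with replicate 3 inside the control range. DNMT1 had 694, 654, 673 and 1055 CPM against 1056 to 1214 CPM, with replicate 3 just under the lowest control. With all 4 libraries, 2 of 9 passed: DNMT1 (log2 fold change -0.55 ± 0.14, edgeR adjusted p = 0.00775) and DNMT3A (-0.74 ± 0.17, edgeR adjusted p = 0.00253). HELLS (-0.72 ± 0.28, edgeR adjusted p = 0.0536), DNMT3B (-0.62 ± 0.24, edgeR adjusted p = 0.058) and EZH2 (-0.54 ± 0.15, edgeR adjusted p = 0.0125) did not.

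Without replicate 3, which was singled out after its values were seen, Das lowered 5 of 9 at 72 h, against 13.2% of all genes. HELLS then changed by -1.21 ± 0.18 (edgeR adjusted p = 6.54e-05), DNMT3A by -0.95 ± 0.13 (edgeR adjusted p = 2.45e-05), DNMT3B by -0.94 ± 0.20 (edgeR adjusted p = 0.00123), EZH2 by -0.76 ± 0.11 (edgeR adjusted p = 3.98e-05) and DNMT1 by -0.72 ± 0.11 (edgeR adjusted p = 5.42e-05). The TET genes and EZH1 stayed short of the threshold, with EZH1 at 0.30 ± 0.11 (edgeR adjusted p = 0.0366). In the numbered libraries without replicate 3 the count was also 5 of 9, against 21% of all genes. Without either control replicate 3, Das replicate 1 or Das replicate 2, however, 0 of 9 passed, and of the 8 fits that leave out 1 library DNMT1 passed only in the fit without Das replicate 3.

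Adding Das to Sal moved none of the 9 past the threshold at 72 h (0 of 9 for S + D against Sal, against 3.01% of all genes in either direction, with 2 of 9 at an unadjusted p under 0.05). The 4 differences largest in size were -0.41 ± 0.14 for DNMT1, -0.37 ± 0.22 for TET2 (edgeR adjusted p = 0.33), -0.33 ± 0.30 for HELLS (edgeR adjusted p = 0.561) and 0.29 ± 0.11 for EZH1 (edgeR adjusted p = 0.12). Adding Sal to Das moved all 9, with 8 lower (17.7% of all genes) and EZH1 higher (14.3%), from -2.30 ± 0.30 for HELLS (edgeR adjusted p = 1.19e-05) to -0.66 ± 0.18 for TET3 (edgeR adjusted p = 0.00555). Without Das replicate 3, 7 of the 9 passed. The share of all genes in that fit is not given, so this count shows only how the calls shifted.

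The response to both drugs was also set against the sum of the single responses on the log2 scale. No member differed from the sum at 24 h (0 of 9, against 0.0306% of all genes) or at 72 h (0 of 9, against 7.52%). At 24 h the largest value was 0.47 ± 0.12 for EZH1 (edgeR adjusted p = 0.155), which was called with S + D and with neither drug alone, and 1 of 9 was at an unadjusted p under 0.05. At 72 h it was 0.66 ± 0.23 for DNMT3A (edgeR adjusted p = 0.0562). In the numbered libraries without Das replicate 3, a comparison chosen after the values were seen, 4 of 9 responses at 72 h were less negative than the sum, against 30.4% of all genes called in either direction. These were HELLS by 1.20 ± 0.18 (edgeR adjusted p = 8.68e-05), DNMT3A by 0.999 ± 0.196 (edgeR adjusted p = 0.000786), DNMT3B by 0.95 ± 0.23 (edgeR adjusted p = 0.00404) and EZH2 by 0.72 ± 0.12 (edgeR adjusted p = 0.000259).

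The change of each response between 24 h and 72 h was tested over all 32 libraries. With Sal, 5 of 9 responses were more negative at 72 h (13.7% of all genes) and that of EZH1 more positive (8.21%). HELLS moved by a further -2.27 ± 0.32 (edgeR adjusted p = 5.77e-06), DNMT3B by -1.07 ± 0.29 (edgeR adjusted p = 0.00538), DNMT3A by -0.996 ± 0.235 (edgeR adjusted p = 0.00157), EZH2 by -0.85 ± 0.18 (edgeR adjusted p = 0.000713), DNMT1 by -0.67 ± 0.17 (edgeR adjusted p = 0.003) and EZH1 by 0.70 ± 0.13 (edgeR adjusted p = 0.00014). With S + D, 3 of 9 were more negative (10.1%) and EZH1 more positive (6.15%). TET1, at 0.15 ± 0.31 at 24 h, changed by -1.73 ± 0.45 (edgeR adjusted p = 0.00448), HELLS by -1.97 ± 0.33 (edgeR adjusted p = 5.9e-05), DNMT3A by -0.83 ± 0.23 (edgeR adjusted p = 0.00898) and EZH1 by 0.48 ± 0.13 (edgeR adjusted p = 0.00589). In the 16 fits that leave out 1 library, HELLS passed in 16, TET1 in 12, DNMT3A in 4 and EZH1 in 3, so that between 1 and 4 members were called. TET1 was lost without the unnumbered 24 h control, 72 h control replicate 1, S + D 72 h replicate 1 or the unnumbered S + D 72 h library. In the same kind of fits for Sal, DNMT3B passed in 8 of 16 and the other 5 called genes in 16. With Das, 0 of 9 responses changed with time (0.226% of all genes), and 0 of 9 were at an unadjusted p under 0.05. In the numbered libraries without Das replicate 3, HELLS (-0.89 ± 0.13, edgeR adjusted p = 1.65e-05), TET1 (-0.83 ± 0.23, edgeR adjusted p = 0.00733), DNMT3A (-0.73 ± 0.14, edgeR adjusted p = 0.000406) and DNMT1 (-0.44 ± 0.12, edgeR adjusted p = 0.00706) had a more negative Das response at 72 h, 4 of 9 against 18.8% of all genes called in either direction.

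Other genes of these pathways were counted in lists. At the same threshold the shares of all genes at 72 h were 26.3% higher and 26.8% lower for Sal, 27% and 27.9% for S + D, and 10.5% and 9.36% for Das, and nothing is read from a count as particular to its list. Das without replicate 3 had 14.6% of all genes higher and 13.2% lower. Among the partners and readers of DNA methylation, Sal raised 3 of the 11 tested and lowered 1 at 72 h, and S + D raised 2 and lowered 2, with a list median log2 fold change of -0.055 and -0.145. Das changed 0 of 11 (4 at an unadjusted p under 0.05) and, without replicate 3, lowered 1. CDCA7, which works with HELLS in remodelling, fell from 77.5 ± 3.63 CPM in the control to 16.7 ± 3.14 with Sal and 14.9 ± 2.83 with S + D (SD, n = 4). Its log2 fold changes were -2.23 ± 0.20 (edgeR adjusted p = 9.02e-08) and -2.40 ± 0.20 (edgeR adjusted p = 3.95e-08). MBD4, a glycosylase that repairs mismatches at methylated sites, rose with Sal from 70.1 ± 4.90 to 170.7 ± 34.0 CPM (log2 fold change 1.27 ± 0.17, edgeR adjusted p = 3.73e-06). MBD1, a reader of methylated DNA, rose with Sal by 0.87 ± 0.10 (edgeR adjusted p = 1.11e-06) and ZBTB24, a zinc finger factor, by 0.58 ± 0.16 (edgeR adjusted p = 0.00337). About 8.32% of the exon bases of MBD4 overlap a gene on the other strand, and the use of strand in counting is not given in the sources used here.

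Of 9 other PRC2 subunits, 5 were lower and 1 higher with Sal at 72 h, and 6 lower and 1 higher with S + D. With Das 0 changed (5 of 9 at an unadjusted p under 0.05, a count without a share of all genes to set it against). Without Das replicate 3, 4 of these 9 were lower and 1 higher with Das. The Polycomb-like subunits, which bring PRC2 to DNA, did not move as one. PHF19 fell with Sal from 36.5 ± 1.81 to 12.6 ± 3.50 CPM (log2 fold change -1.55 ± 0.21, edgeR adjusted p = 5.94e-06) and MTF2 from 73.7 ± 3.87 to 35.5 ± 0.82 CPM (-1.07 ± 0.13, edgeR adjusted p = 1.29e-06), while PHF1 rose from 63.9 ± 5.65 to 172.5 ± 21.4 CPM (1.42 ± 0.14, edgeR adjusted p = 2.72e-07). RBBP7, a histone-binding subunit, fell by 1.03 on the log2 scale (SE 0.14, edgeR adjusted p = 5.97e-06).

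Of 18 subunits of the second Polycomb complex, PRC1, which ubiquitinates histone H2A, Sal raised 6 and lowered 8 at 72 h, S + D raised 5 and lowered 8, and Das lowered 3. Without replicate 3, Das raised 2 and lowered 3. CBX2, a reader of the PRC2 mark, fell with Sal from 131.2 ± 15.7 to 25.9 ± 6.68 CPM (log2 fold change -2.36 ± 0.24, edgeR adjusted p = 2.53e-07), while CBX7, another reader, rose from 24.5 ± 1.56 to 63.6 ± 11.3 CPM (1.36 ± 0.14, edgeR adjusted p = 2.62e-07). KDM2B, which brings PRC1 to unmethylated CpG islands, changed by -1.64 ± 0.16 (edgeR adjusted p = 2.09e-07) and the scaffold subunit PHC2 by -1.33 ± 0.16 (edgeR adjusted p = 1.32e-06). About 21.6% of the exon bases of CBX7 overlap other annotated genes.

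Of 5 genes for removal of Polycomb marks, 4 rose and 0 fell with Sal at 72 h, and 3 rose and 0 fell with S + D. Das changed 0 of 5 (1 at an unadjusted p under 0.05) and, without replicate 3, raised 1. KDM6B, a demethylase of the PRC2 mark, rose from 71.8 ± 13.7 to 160.7 ± 35.5 CPM with Sal (log2 fold change 1.145 ± 0.203, edgeR adjusted p = 9.63e-05) and its relative KDM6A from 27.6 ± 2.09 to 48.0 ± 1.495 CPM (0.78 ± 0.10, edgeR adjusted p = 5.29e-06). BAP1, which removes ubiquitin from histone H2A, changed by 0.95 ± 0.13 (edgeR adjusted p = 6.17e-06) and its partner ASXL2 by 0.89 ± 0.21 (edgeR adjusted p = 0.00126). Of 3 genes that supply the methyl donor or clear it, 2 fell with Sal. MAT2A, which makes S-adenosylmethionine, fell with Sal from 285.8 ± 29.3 to 143.0 ± 15.7 CPM (-1.02 ± 0.12, edgeR adjusted p = 1.3e-06), and AHCY, which clears the spent donor, from 175.5 ± 11.9 to 99.5 ± 5.46 CPM (-0.84 ± 0.11, edgeR adjusted p = 3.39e-06). MAT2B, the regulatory partner of MAT2A, did not pass (0.02 ± 0.10, edgeR adjusted p = 0.846). About 12.5% of the exon bases of MAT2A overlap a gene on the other strand. MAT2A did not pass with Das (0.12 ± 0.12, edgeR adjusted p = 0.449) and AHCY did (-0.58 ± 0.11, edgeR adjusted p = 0.000608), as in the fit without replicate 3 (0.07 ± 0.12, edgeR adjusted p = 0.672, and -0.62 ± 0.11, edgeR adjusted p = 0.000395).

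**Figure D4:**
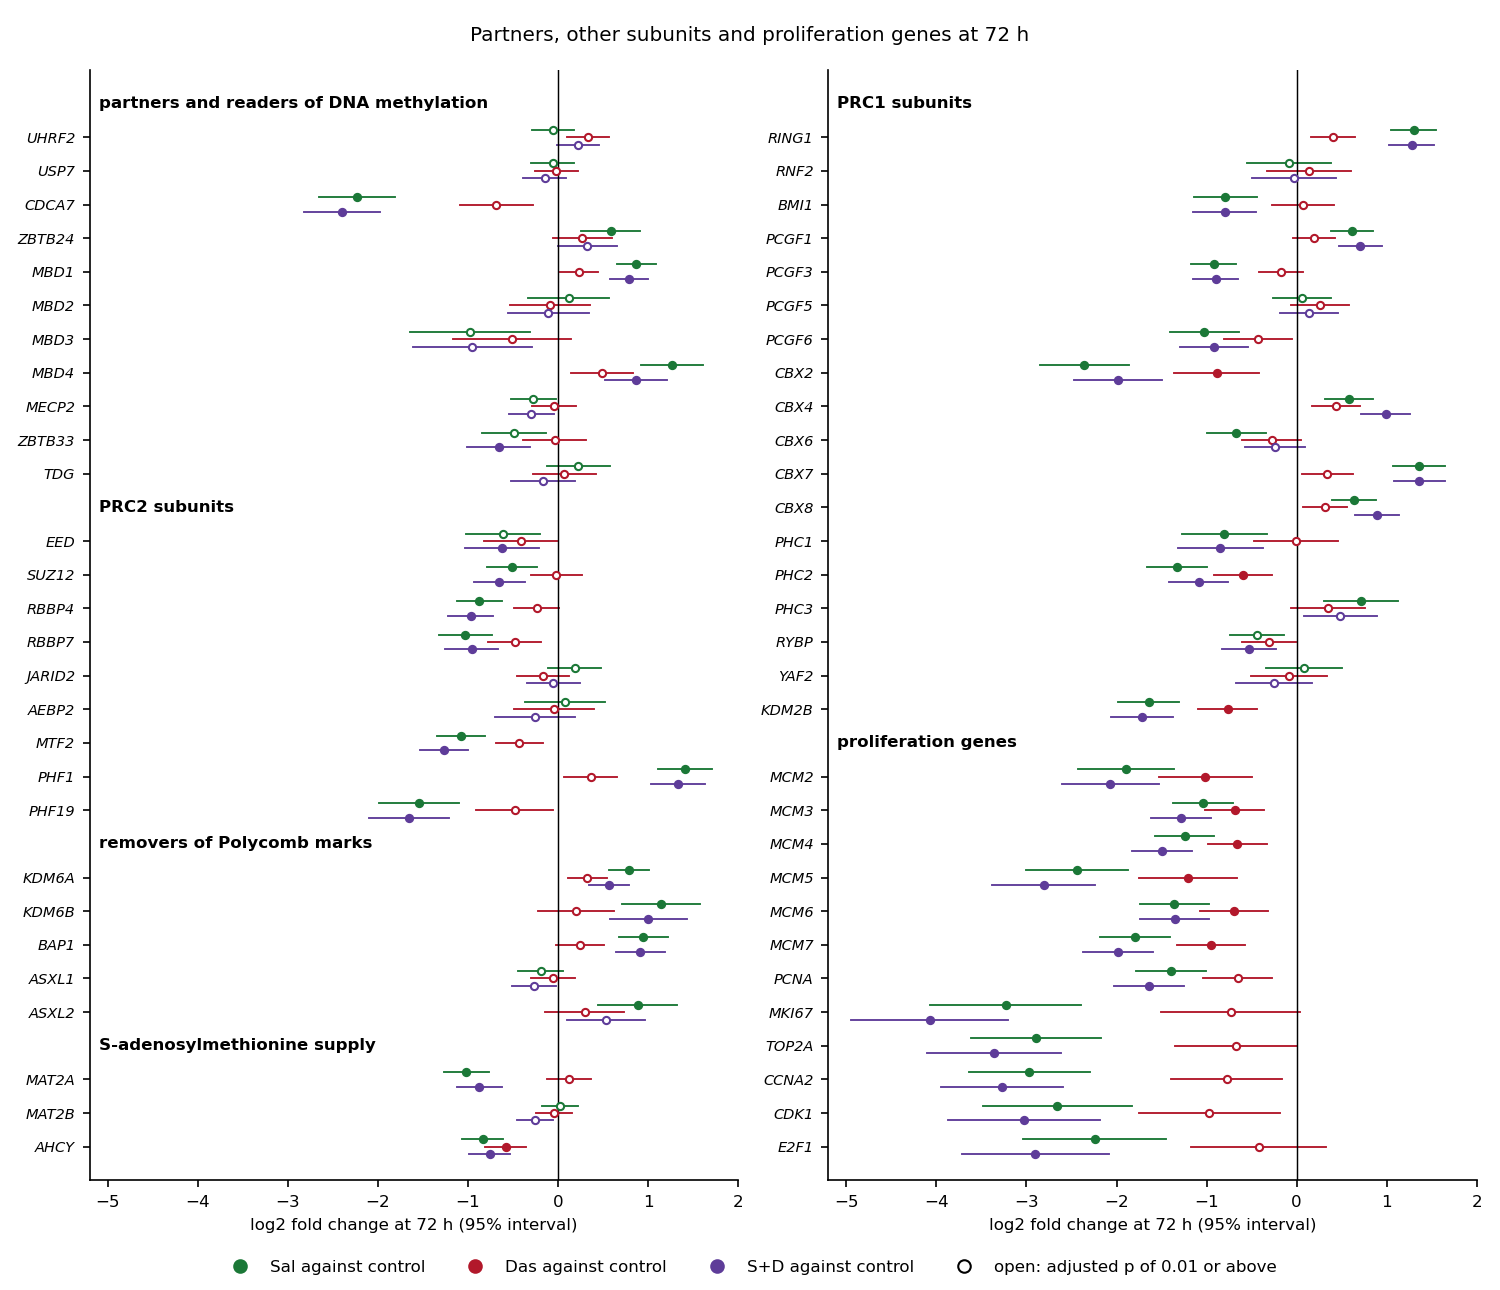
Log2 fold change against the 72 h control (horizontal axis) with 95% intervals for genes of the pathway lists and for proliferation genes. Green is Sal, red Das and purple S + D, and filled points passed an adjusted p under 0.01. Genes of 1 complex lie on both sides of 0, such as PHF1 at 1.42 and PHF19 at -1.55 with Sal, while all 12 proliferation genes lie to the left of 0 with Sal and S + D.

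Genes that promoter methylation keeps silent in most body cells were counted as well. Of 10 such germline genes, 1 could be tested at 72 h, and the others stayed under the filter on low counts. MAGEA4 was detected in the control, with 39 to 60 counts in a library, and fell to between 0 and 13 counts with Sal and between 0 and 4 with S + D (edgeR adjusted p = 9.79e-05 and 2.85e-05).

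The fall of the members went with a fall of proliferation genes, and their part in each other was not tested. All 12 genes of a list of replication and cell cycle genes, chosen with earlier results known, were lower with Sal and with S + D at 72 h. The median log2 fold changes were -2.07 and -2.44, and 26.8% and 27.9% of all genes were lower. All 12 were also lower with S + D at 24 h (-1.28, against 16.5% of all genes). At 24 h 9 of 12 were lower with Das (6.88%) and 3 of 12 with Sal (2.23%), or 12 of 12 in the numbered libraries (10.9%). At 72 h 6 of 12 were lower with Das (9.36%), or 3 of 12 in the numbered libraries (11.5%). Without the library labelled Das 72 h replicate 3, 11 of 12 were lower with Das at 72 h, against 13.2% of all genes. The median was then -1.11, against -0.72 with that library. MKI67, a marker of cycling cells, had 372 ± 33.9 CPM in the 72 h control and 40.2 ± 12.6 with Sal (SD, n = 4; log2 fold change -3.23 ± 0.40, edgeR adjusted p = 2.15e-06). CCNA2 changed by -2.97 ± 0.32 (edgeR adjusted p = 4.95e-07), TOP2A by -2.90 ± 0.34 (edgeR adjusted p = 1.47e-06) and CDK1 by -2.66 ± 0.39 (edgeR adjusted p = 1.55e-05). With Sal at 72 h, the fall of HELLS, 2.69 on the log2 scale, was within the range of this list, and DNMT1, at 0.91, fell less than each of the 12, of which MCM3 fell least, by 1.04.

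Across the 32 libraries, the genes whose log2 CPM was most like that of each member were taken from 13462 genes with a mean of at least 1 CPM. The libraries share treatment, time point and the lack of a replicate number, so these correlations describe the libraries and carry no test. EZH2 was closest to ANLN (r = 0.987), GINS1 (0.986) and CCNA2 (0.986), and DNMT3B to PLK1 (0.979), PRC1 (0.979), here the cytokinesis gene and not the complex, and BUB1 (0.978). DNMT1 was closest to CLSPN (0.985), a gene of replication checkpoints, SF3B3 (0.983) and PLEKHA6 (0.983), HELLS to TMEM237 (0.993), STMN1 (0.990) and SETMAR (0.988), and DNMT3A to AKAP1 (0.988), BEND3 (0.980) and SH3RF2 (0.978). The TET genes had other neighbours: TET1 was closest to BMPR2 (0.975), ANK3 (0.967) and PDZD2 (0.967), TET2 to SETD2 (0.985), LATS1 (0.977) and BPTF (0.972), and TET3 to PLEKHA7 (0.970), FAT1 (0.967) and AMOT (0.959). EZH1 was most like P2RX7 (0.889), PCGF3-AS1 (0.881) and SLC25A25-AS1 (0.873), and its correlation with the other 8 members was negative for each, from -0.417 with TET2 to -0.769 with HELLS.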

How the data were processed

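RNA-seq was made from 32 libraries of MDA-MB-468 cells, with 8 groups of 4 libraries described as biological replicates. The authors deposited a table of raw counts per Ensembl gene, and the submitters' processing notes name bcl2fastq 2.19, STAR 2.5.2, Cufflinks 2.1.1, DESeq2 and the build GRCh37, while the counting program and its use of strand are not given in the sources used here. Of the 48804 genes listed, 46537 matched the GRCh37 annotation by identifier. UHRF1, PCGF2 and PECAM1 matched no row and were not analysed here. Whether the table holds them under other identifiers was not resolved. All columns of the table were mapped to a sample.

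Counts were filtered with filterByExpr (minimum count 10), scaled by TMM and tested with the quasi-likelihood test of edgeR 4.0.16 in R 4.3.3 (limma 3.58.1), at an adjusted p (Benjamini-Hochberg) under 0.01 over all genes. One fit covered the 16 libraries of each time point (16357 genes at 24 h and 16682 at 72 h), and another all 32 libraries (17227 genes) for contrasts between times. All tests were two-sided. CPM are counts scaled to a common total, and SE are those of the fitted log2 fold changes. The count test was run on data simulated for Sal against control, with 50 genes changed at each fold. There, 1.25-fold changes were recovered in 0% and 1.5-fold changes in 8% at both times. Changes of 2-fold were recovered in 64% at 24 h and 54% at 72 h, and of 4-fold in 90% at both. Of unchanged genes, 1 of 15940 was called at 24 h and 0 of 16201 at 72 h. Far fewer genes were changed there than were called with Sal at 72 h (26.3% of all genes higher and 26.8% lower). That makes the adjusted p harder to pass, so these recoveries need not hold for the measured comparisons. A small change that did not pass is still not shown to be absent. Alternatives were RLE scaling, no filter, DESeq2 1.42.0, a replicate block, a term for or removal of the unnumbered libraries, other sets of libraries in the fit, a fold cutoff and leaving out each library. The numbered libraries without Das 72 h replicate 3 were added after the data were seen.

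The members and all gene lists were chosen with earlier results of these data known. Named from each list were up to 4 genes called with Sal at 72 h with the largest absolute log2 fold change there, and for each member the 3 genes of at least 1 mean CPM with the highest correlation. MCM3 was named after its value was seen.

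Whether equal replicate numbers pair libraries was checked by correlating deviations from group means. At 24 h, numbered libraries of equal number had r from 0.135 to 0.321, and those of different number from 0.116 to 0.353. At 72 h equal numbers gave r down to -0.03. The numbers were therefore not taken as pairs. The p-values measure the spread between these libraries of 1 line.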

Additional observations from a re-analysis of the deposited data

Results flagged for a closer look

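In 14 of the 72 groups of 4 libraries (9 genes in 8 groups), 1 library stood apart from the other 3 by more than Dixon's 95% limit for the gap over the range. Chance flags about 1 in 20 groups, and the groups are not independent, since 1 library enters all 9 genes. The share flagged over all genes was not computed, so nothing is read from the 14 as particular to these genes. The library labelled Das 72 h replicate 3 was the high one for DNMT1 at 1055 CPM (others 654 to 694), DNMT3A at 64.0 CPM (36.1 to 39.4), HELLS at 34.1 CPM (11.7 to 14.2), TET3 at 113.5 CPM (75.8 to 80.5) and EZH2 at 151.0 CPM (86.3 to 93.0).

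An unnumbered library was the low one in 8 of the groups. In Das at 24 h these were DNMT1 at 943 CPM and DNMT3A at 48.7 CPM, in the 24 h control DNMT3A at 66.0 CPM and TET3 at 110.5 CPM, and in S + D at 24 h DNMT3A at 34.4 CPM and TET2 at 65.5 CPM. TET2 in Sal at 24 h was at 36.1 CPM (others 87.4 to 96.4), and TET1 in the 72 h control at 15.2 CPM (others 25.0 to 26.9). The remaining one was DNMT3A in Sal at 72 h, where replicate 1 had 27.9 CPM against 24.9 to 25.3 CPM.

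The response also differed between 24 h and 72 h by its own test in 10 cases. The difference of log2 fold changes with Sal was -2.27 for HELLS, -1.07 for DNMT3B, -0.996 for DNMT3A, -0.85 for EZH2, -0.67 for DNMT1 and 0.70 for EZH1. With S + D it was -1.97 for HELLS, -1.73 for TET1, -0.83 for DNMT3A and 0.48 for EZH1.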

How the results depend on the processing

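The counts of called members at 72 h with Sal (8) and S + D (9) were the same when any library was left out (8 to 8 and 9 to 9), as was S + D at 24 h (6 to 6). Without 1 library, the count was 0 to 2 with Sal at 24 h, 2 to 3 with Das at 24 h, 0 to 5 with Das at 72 h, 7 to 9 for S + D against Das, 0 to 2 for the departure from additivity at 72 h, 5 to 7 for the Sal response between times and 1 to 4 for that of S + D, which was 1 without the unnumbered 24 h control, 72 h control replicate 1 or the unnumbered S + D 72 h library. For Das at 72 h, 5 passed without its replicate 3 and 0 without its replicate 1 or 2 or control replicate 3; 2 departed from additivity at 72 h without Das replicate 3.

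With the replicate block, 5 members passed with Sal and 5 with Das at 24 h, as with a term for the unnumbered libraries (5 and 5); the block moved no other count of called members by over 1.5 times. The numbered libraries alone gave 4 and 5 at 24 h, 6 lower and 2 higher for S + D at 24 h, and 1 for Das at 72 h. DESeq2 gave 3 with Sal at 24 h and 0, as edgeR did, for S + D against Sal, both departures from additivity, the control between times and the Das response, while a fit to all 32 libraries gave 0 with Sal at 24 h. A fit to the groups compared alone gave 0 for Sal at 24 h, 0 for Das at 72 h, 1 for the control between times and 7 for the S + D response between times. Numbered libraries without Das 72 h replicate 3, chosen after seeing the data, gave 5 for Das at 72 h, 4 for the departure from additivity and 4 for the Das response between times. An absolute log2 fold change above 1.5 as well left 0 members for each treatment at 24 h, 3 for Sal, 0 for Das and 4 for S + D at 72 h, 1 for S + D against Das, 1 for the Sal response and 2 for the S + D response between times. Shares of all genes are not given for the fold cutoff or for most of these fits. The counts therefore show only how the calls shifted with the processing. The cause of these shifts was not tested. Of 873 alternative values of single members, 20 changed sign and 0 of these were called in either fit.

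The limits are 1 cell line, RNA with no measure of protein or of methylation, and shares of a library rather than amounts per cell. MAGEA4 rested on at most 60 counts.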
